A study of Rattus norvegicus with 6 samples.

Results

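The axon guidance families are sets of secreted and membrane-bound ligands with their receptors, first described in the growing nervous system and also active in blood vessels, epithelia and leukocytes. Here their members were taken by gene symbol: all probe sets with a single symbol that starts with Sema, Plxn, Epha, Ephb, Efna, Efnb, Robo, Ntn or Unc5, that is Slit followed by a digit, or that is Nrp1 or Nrp2. This gave 97 probe sets for 58 genes, out of 14217 genes named on the array. Of these, Unc50 and Unc5cl match by their letters only and are not netrin receptors. Where a gene had several probe sets, the brightest by its mean over the 6 arrays stood for it.

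The 6 arrays came from male rats of the outbred Sprague-Dawley strain whose upper first molars had been extracted on both sides at 4 weeks of age. Peri-implant soft tissue (3 arrays) came from the left side, where the socket had received a titanium alloy implant, and oral mucosal tissue (3 arrays) from the right side, where the socket had healed without one. Both were collected 4 weeks after surgery, so both tissues had gone through extraction and healing, and implant and side of the mouth cannot be told apart. Nothing in the labels says whether each array of a tissue stands for 1 rat or a pool, so the spread behind the p-values may be technical. Signals are on the log2 scale, and differences are peri-implant minus oral mucosal. A signal is called dim below 5.90, the 40th percentile of all single values.

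In these families, semaphorins signal through plexins, with neuropilins as co-receptors for most of the secreted class 3 members. Ephrins and Eph receptor kinases meet at cell contacts and signal in both directions, which sorts cells and sets tissue boundaries. Slits bind Robo receptors, and netrins bind Dcc, neogenin and the Unc5 receptors. In skin and mucosa these families are known from keratinocytes, vessels, nerve endings, fibroblasts and immune cells alike.

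Guidance genes differed in both directions between the tissues, among ligands and among receptors. Sema3e was 8.47-fold lower in peri-implant tissue, and Sema3c, Sema6d, Nrp2, Efna1, Ephb6, Robo2 and Unc5b also fell. Sema4a was 2.28-fold higher and Slit2 was 2.57-fold higher, and Sema4b, Plxna1, Plxnb2, Epha2 and Epha4 also rose. Of the 58 members, 41 were bright enough to be tested. Among these, 7 were higher, 8 were lower and 26 did not pass an adjusted p of 0.05 in limma. Over all 10585 genes tested, 26.1% were called, 15.2% higher and 11.0% lower (22.5% of the 18625 probe sets tested); of the members tested, 36.6% were called. The median difference of the members was -0.07, beside 0.03 for all genes tested. The groups did not overlap for 21 of the 41 members (51.2%), where the background over all genes was 41.9%. Of the 41 tested members 4, Sema3e, Sema4a, Slit2 and Unc5b, were called and at least 2-fold apart between the tissues. This is a share near the background of 7.51% of genes. Every called member lay above the dim value on all 6 arrays.

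**Figure D1:**
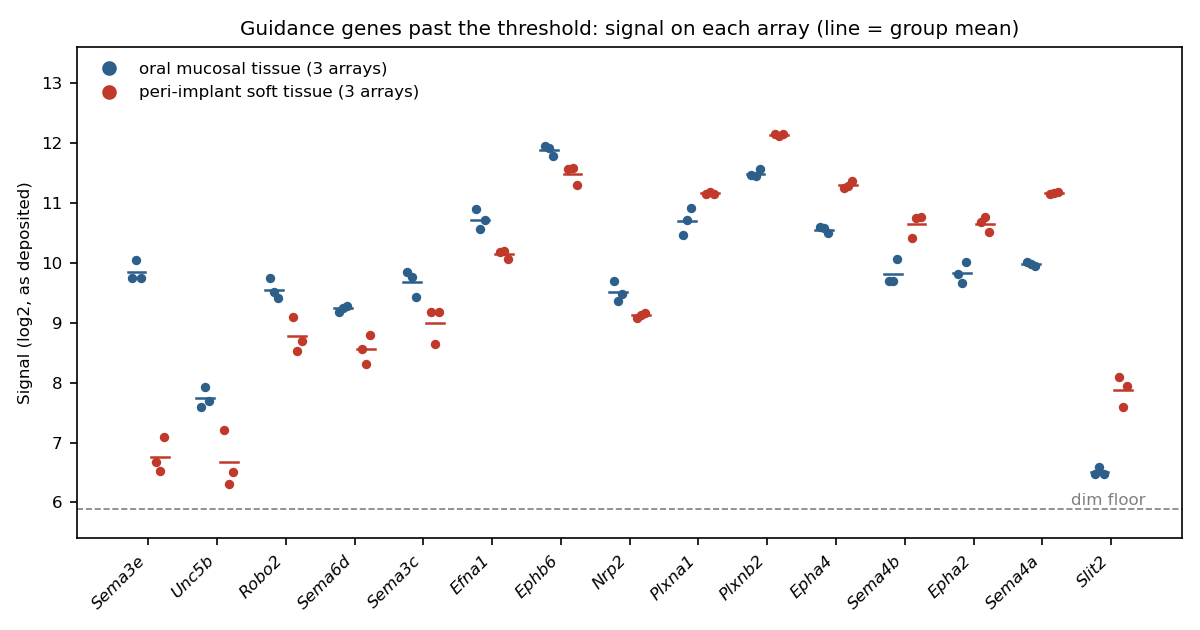
Log2 signal (vertical axis) of the 15 guidance genes past the threshold on each of the 6 arrays, ordered from the largest fall to the largest rise; points are arrays, short lines are group means and the dashed line is the dim value of 5.90. The 3 peri-implant points lie wholly above or wholly below the 3 mucosal points for each gene, and the gap is widest for Sema3e.

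Median signal per array was 6.62 to 6.78, and the share of probe sets above the dim value was 58.3% to 62.4%, so no array stood apart in these values. The arrays had been scaled to the same trimmed mean, so these values cannot show whether they differed in brightness before scaling. Of 12 keratinocyte markers 11 were above the dim value in both tissues, and Ivl was dim in mucosa and not tested; the summed linear signals were 368146 to 494706 in peri-implant tissue and 350366 to 490605 in mucosa. Of the 11 tested, 5 were higher and 2 lower, and within these sums Krt15 was 12.5-fold and Krt4 8.70-fold higher in peri-implant tissue. The 2 lower ones were Krt5 and Pkp1, with differences of -0.50 and -0.39. Of 11 tested macrophage and monocyte markers 10 were higher and 0 lower, with summed signals of 11698 to 12944 against 5674 to 5809. Among the higher ones, Adgre1 was dim on every mucosal array. In the list of T and B cell markers the 5 tested genes, Cd3e, Cd3g, Cd2, Cd5 and Lck, are all T cell genes and were higher, of which Cd3e and Cd5 had dim mucosal means. The B cell markers Cd79b and Ms4a1 were dim on every array, and the sums of the whole list were 1439 to 1610 against 387 to 456. Of 10 fibroblast markers 7 were lower and 1 higher, with sums of 44970 to 46165 against 69426 to 76467. Of 8 endothelial markers 1 was higher and 0 lower, with sums of 1334 to 1541 against 916 to 1171. Of 6 tested Schwann cell and nerve markers 3 were lower and 1 higher, with sums of 2045 to 2442 against 5779 to 6151. The fall in the sums was mostly that of Pmp22 and Tubb3 (differences -2.54 and -1.55). Mbp was also lower (-0.85), while Uchl1 rose by 1.97 from a dim mucosal mean (5.25). Gap43 and Prx did not pass, with differences of 0.59 and 0.20. Of the 13 nerve markers on the array, 6 were dim on every array, Sox10 and S100b among them. Neutrophil markers had 4 of 5 tested genes higher, with sums of 118531 to 161044 against 26450 to 28913. These sums were almost wholly S100a8, at means of 15.87 against 13.98, and S100a9, at 16.15 against 13.38. Csf3r and Fcgr3a were also higher (differences 2.26 and 0.88), and Cxcr2 did not pass (difference -0.10). Salivary and secretory markers had 1 of 4 higher, Scgb1a1, and 1 lower, Aqp5, with sums of 1573 to 1811 against 533 to 573. Bone markers had 1 higher and 2 lower of 4, with sums of 8872 to 9107 against 4873 to 5642. The rise in the bone sums was mostly that of Spp1, at means of 12.18 against 9.26. Ibsp and Ctsk were lower (differences -1.49 and -0.51), and Acp5 had a difference of 0.02. Bglap was too dim over all arrays to be tested. It read 7.16, 6.97 and 6.75 in peri-implant tissue, above the dim value, and 4.49, 1.61 and 2.05 in mucosa, below it. The Bglap difference was 4.24 as deposited and 1.06 with dim values raised to the dim value. Dmp1, also not tested, had a difference of -0.52 between dim means. Muscle markers had 1 lower of 4, with sums of 519 to 682 against 730 to 901. Many guidance genes are expressed in several of these cell types, and the part of these markers' shifts in the results on guidance genes was not tested. In such bulk samples, fewer cells of a type and less RNA per cell cannot be told apart.

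Class 3 semaphorins, which are secreted, held the largest difference. Sema3e, whose protein binds plexin D1 directly without a neuropilin, stood at 6.68, 6.53 and 7.09 on the peri-implant arrays and at 9.74, 10.05 and 9.75 on the mucosal arrays. The highest peri-implant array was thus far below the lowest mucosal one. The difference was -3.08 (SE 0.18; adjusted p = 5.91e-08 in limma), and it lay between -3.24 and -2.96 over all 13 alternatives. Sema3c, a ligand for neuropilin and plexin complexes known from heart and vessel development, read 9.17, 8.65 and 9.18 in peri-implant tissue against 9.84, 9.76 and 9.43 in mucosa. Its groups lay close to each other but did not overlap, and it fell by 0.67 (SE 0.16; adjusted p = 0.00696 in limma). In a fit without the variance trend Sema3c did not pass (adjusted p = 0.0679). Sema3f and Sema3g did not pass, with differences of -0.20 and 0.66, and Sema3a, Sema3b and Sema3d were too dim to be tested. The second probe set of Sema3f had a difference of 0.42 and did not pass. That of Sema3g, under the filter, had one of -0.93.

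The 250 bases before and 50 after the annotated start of Sema3e and Sema4a, the semaphorins with the largest fall and the largest rise, are shown from RefSeq (build GRCr8). Each is written 5′ to 3′ on the strand of its gene. They lie at chr4:21510325-21510624 and chr2:176212209-176212508, both on the minus strand. Capitals mark every match, on either strand, to 7 motifs: the TATA box (TATAAA), the CCAAT box (CCAAT), the GC box (GGGCGG), AP-1 (TGANTCA), GLI (GACCACCCA), the hypoxia element core (ACGTG) and STAT (TTCNNNGAA).
Sema3e: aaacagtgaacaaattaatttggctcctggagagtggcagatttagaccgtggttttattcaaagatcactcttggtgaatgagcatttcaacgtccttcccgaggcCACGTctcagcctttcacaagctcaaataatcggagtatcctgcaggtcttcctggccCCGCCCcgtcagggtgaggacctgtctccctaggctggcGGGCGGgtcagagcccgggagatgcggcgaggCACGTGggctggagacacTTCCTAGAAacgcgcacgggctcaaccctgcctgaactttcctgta
Sema4a: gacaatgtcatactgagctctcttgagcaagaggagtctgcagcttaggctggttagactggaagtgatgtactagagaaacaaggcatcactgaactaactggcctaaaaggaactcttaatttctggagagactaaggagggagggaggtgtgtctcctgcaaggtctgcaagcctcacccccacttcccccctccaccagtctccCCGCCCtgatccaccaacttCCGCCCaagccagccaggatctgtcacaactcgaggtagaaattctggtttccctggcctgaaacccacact
The Sema3e window held 2 GC boxes, 3 hypoxia element cores, of which 2 overlap on opposite strands in a CACGTG, and 1 STAT match. The Sema4a window held 2 GC boxes and no other match. Of all 33469 promoter windows of this length, 33.1% held a GC box, 19.3% the hypoxia core and 8.87% the STAT letters. The Sema3e window had 16 CpG dinucleotides and that of Sema4a 3. A match is a description of the letters and not evidence of binding.

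Class 4 semaphorins, which are anchored in the membrane, included 2 of the 7 higher members. Sema4a, known for its role between dendritic cells and T cells, stood at 11.15, 11.17 and 11.18 in peri-implant tissue and at 10.01, 9.98 and 9.94 in mucosa. The arrays of each tissue were nearly level with each other, and the groups were far apart. It rose by 1.19 (SE 0.07; adjusted p = 1.10e-07 in limma). Sema4b read 10.41, 10.75 and 10.77 against 9.69, 9.69 and 10.07, which is 1.77-fold higher (adjusted p = 3.35e-04 in limma). One mucosal array of Sema4b stood above the other two, though below every peri-implant array. Sema4d, an activating ligand on lymphocytes that binds plexin B1 and Cd72, had a difference of -0.54 (95% interval -1.28 to 0.21), and Sema4f one of 0.73 between overlapping groups with dim arrays in both. Sema4g was too dim to be tested.

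Among class 5 and 6 semaphorins, also membrane proteins, 1 of 5 passed. Sema6d, a ligand of plexin A1, stood at 8.56, 8.31 and 8.80 in peri-implant tissue against 9.18, 9.25 and 9.28 in mucosa. The mucosal arrays were tight, the peri-implant arrays more spread, and the groups did not overlap. Its level was 1.60-fold higher in mucosa (difference -0.68, SE 0.14; adjusted p = 0.00325 in limma). Sema6a, at 7.18 ± 0.21 against 6.33 ± 0.76 (SD, n = 3 each), and Sema5a, at 9.43 ± 0.15 against 9.15 ± 0.10, were higher on every peri-implant array than on any mucosal array but did not pass (adjusted p = 0.124 and 0.103 in limma). Sema6b and Sema6c had differences of -0.23 and -0.17, with overlapping groups.

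Plexins, the signalling receptors of semaphorins, had 2 of 6 tested members higher and 0 lower. Plxnb2, a receptor for class 4 semaphorins, read 12.14, 12.11 and 12.14 on the peri-implant arrays and 11.46, 11.44 and 11.56 on the mucosal arrays. Both groups were tight and well apart, with a difference of 0.64 (SE 0.07; adjusted p = 1.83e-05 in limma). Plxna1 stood at 11.14, 11.18 and 11.15 against 10.47, 10.71 and 10.92, a difference of 0.45 (adjusted p = 0.00577 in limma). For this gene the mucosal arrays were the spread ones. Plxna1 no longer passed with the mean of its 3 probe sets (adjusted p = 0.475), of which the other two were dim, or in a fit without the trend (adjusted p = 0.0740).

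Plxnd1, the receptor of Sema3e, read 7.68, 7.50 and 7.85 in peri-implant tissue and 6.98, 7.34 and 7.51 in mucosa. The groups overlapped slightly, and the difference of 0.40 had a 95% interval of -0.09 to 0.89 (adjusted p = 0.245 in limma), which does not show that its level was equal. Plxnb1, a receptor of Sema4d, had a difference of -0.25 between groups that did not overlap (adjusted p = 0.0791 in limma). Plxna2 and Plxna3 did not pass, with differences of 0.31 and 0.04, although a second probe set of Plxna2 was called higher by 0.46 (adjusted p = 0.0289 in limma). The third probe set of Plxna2 had a difference of -0.23 and did not pass. Nor did the second of Plxna3, at -0.72 between groups that did not overlap (adjusted p = 0.0874 in limma). Plxna4 and Plxnc1 were below the filter.

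Plxnc1, a plexin of leukocytes and other cells, had 2 probe sets that gave different pictures. The probe set that stands for the gene read 5.94, 5.79 and 6.08 against 4.49, 4.72 and 5.90, near or below the dim value throughout. The other read 6.89, 7.12 and 7.34 in peri-implant tissue and 1.78, 5.29 and 1.84 in mucosa, so it was above the dim value on every peri-implant array and on no mucosal array. Its difference was 4.14 as deposited and 1.22 with dim values raised to 5.90. Its mean over all arrays was under the filter, and it was tested only without one (adjusted p = 0.00768 in limma). This probe set was singled out after its values were seen.

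Of the neuropilins, co-receptors for class 3 semaphorins and for vascular growth factors, 1 of 2 passed. Nrp2 stood at 9.07, 9.13 and 9.16 in peri-implant tissue against 9.70, 9.36 and 9.48 in mucosa, and fell by 0.39 (SE 0.11; adjusted p = 0.0255 in limma). The groups were separate but close. Its call was the least stable of the 15: it did not pass without mucosal array 1 (adjusted p = 0.123), without peri-implant array 1 or 2 (0.0768 and 0.0700) or in a fit without the trend (0.0736). With the mean of its 2 probe sets, of which the second was dim, the difference of Nrp2 was -1.38. Nrp1 had a difference of 0.11 (95% interval -0.22 to 0.44), and its second probe set one of 0.15.

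**Figure D2:**
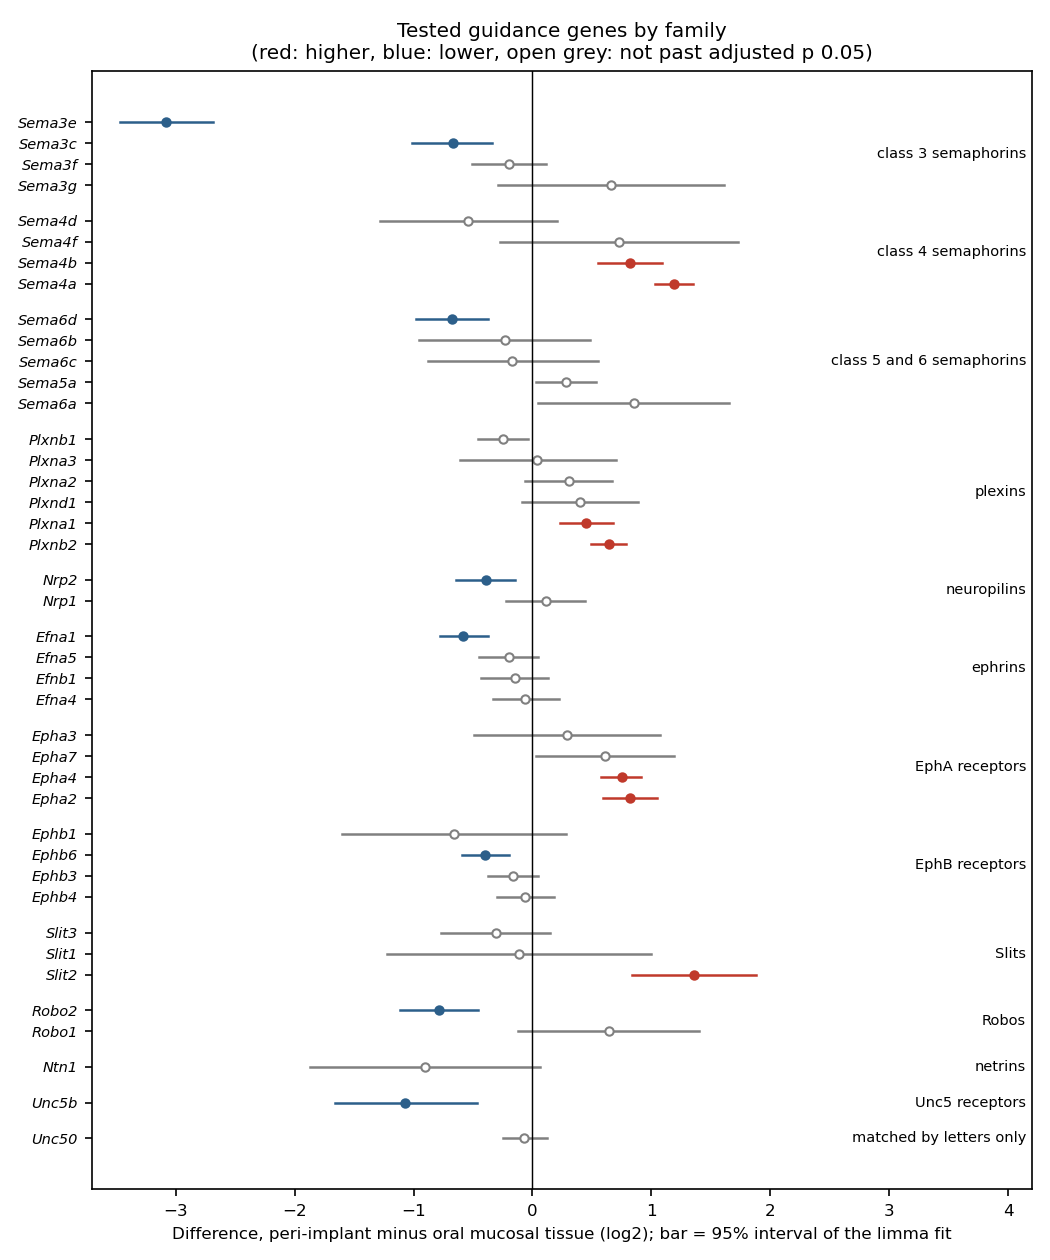
Difference in log2 signal, peri-implant minus oral mucosal tissue (horizontal axis), for the 41 tested members grouped by family, with 95% intervals of the limma fit; red points are higher, blue points lower and open grey points did not pass. The 7 higher genes are in class 4 semaphorins, plexins, EphA receptors and Slits, and the 8 lower genes are in other families, with Sema3e farthest from 0 at -3.08.

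Of 4 tested ephrins, the ligands of Eph receptors, 1 was lower and 0 higher. Efna1, a lipid-anchored ligand that favours Epha2, read 10.18, 10.19 and 10.06 in peri-implant tissue against 10.89, 10.56 and 10.71 in mucosa. Every peri-implant array was lower than every mucosal one, by a mean of 1.49-fold (difference -0.58, SE 0.09; adjusted p = 6.16e-04 in limma). Its second probe set also fell by 0.58 (adjusted p = 4.07e-04 in limma). Efna4, Efna5 and Efnb1 had differences of -0.06, -0.20 and -0.15, with overlapping groups, and Efnb3 was dim on every array.

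Of 4 tested EphA receptors, 2 were higher and 0 lower. Epha2, the receptor of ephrin-A1 in epithelia, stood at 10.68, 10.76 and 10.51 against 9.82, 9.67 and 10.01 in mucosa. The groups were clearly apart, and the level was 1.76-fold higher (SE 0.10 on the log2 difference of 0.82; adjusted p = 7.86e-05 in limma). Epha4, which binds ephrins of both the A and B type, read 11.25, 11.28 and 11.37 against 10.59, 10.58 and 10.49. These were among the tightest groups in the set, and Epha4 rose by 0.75 (SE 0.07; adjusted p = 9.23e-06 in limma). It has 3 other tested probe sets, of which 2 were also called higher, by 0.83 and 0.61, while the fourth did not pass, with a difference of 0.24. Epha7 had a difference of 0.61 (adjusted p = 0.127 in limma) between groups that did not overlap, and it passed with the mean of its 2 probe sets, of which the second was dim (difference 1.38; adjusted p = 0.0354). Epha3 had a difference of 0.29, and Epha5, Epha6, Epha8 and Epha10 were too dim to be tested.

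For Efna1 and Epha2, a ligand and receptor with opposite calls, the same windows from RefSeq (GRCr8) are shown, with capitals for the 7 motifs named above. They lie at chr2:176986772-176987071 on the minus strand and chr5:158888379-158888678 on the plus strand.
Efna1: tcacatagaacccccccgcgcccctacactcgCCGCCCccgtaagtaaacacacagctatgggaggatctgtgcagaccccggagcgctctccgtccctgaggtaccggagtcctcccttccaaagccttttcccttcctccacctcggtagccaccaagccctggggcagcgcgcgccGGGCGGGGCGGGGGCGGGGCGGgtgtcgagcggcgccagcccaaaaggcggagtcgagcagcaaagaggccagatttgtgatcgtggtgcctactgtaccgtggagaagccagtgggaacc
Epha2: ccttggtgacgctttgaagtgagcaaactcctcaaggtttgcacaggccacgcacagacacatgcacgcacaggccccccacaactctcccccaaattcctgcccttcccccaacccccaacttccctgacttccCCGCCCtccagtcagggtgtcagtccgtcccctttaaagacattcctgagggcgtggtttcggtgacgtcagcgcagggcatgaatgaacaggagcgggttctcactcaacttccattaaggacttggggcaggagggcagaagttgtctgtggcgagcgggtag
The Efna1 window held 5 GC boxes, of which 4 stand in 1 unbroken stretch, and 25 CpG dinucleotides. That of Epha2 held 1 GC box and 12 CpG dinucleotides. Neither window held any of the other 6 motifs in these letters. A promoter window was at hand for 12 of the 15 called members, and for 44 of all 58.

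Of 4 tested EphB receptors, 1 was lower and 0 higher. Ephb6, a receptor without kinase activity, read 11.57, 11.58 and 11.29 in peri-implant tissue and 11.94, 11.92 and 11.78 in mucosa. The difference of -0.40 was small but larger than the spread within groups (SE 0.09; adjusted p = 0.00582 in limma), but it missed the threshold in a fit without the trend (adjusted p = 0.0766). Ephb4, the receptor that marks veins, had a difference of -0.06 (95% interval -0.30 to 0.18). Ephb3 and Ephb1 had differences of -0.16 and -0.66, the latter with dim peri-implant arrays.

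Slits and Robos gave a higher ligand beside a lower receptor. Slit2, a secreted repellent, stood at 8.09, 7.59 and 7.94 in peri-implant tissue against 6.47, 6.60 and 6.47 in mucosa. The mucosal arrays were tight and not far above the dim value, and all peri-implant arrays were higher, by 1.36 (SE 0.24; adjusted p = 0.00109 in limma). The call was lost with the mean of its 3 probe sets, of which the other two were dim in both tissues (difference 0.75; adjusted p = 0.382). Slit3 and Slit1 had differences of -0.31 and -0.11. Robo2 read 9.09, 8.53 and 8.69 in peri-implant tissue against 9.74, 9.51 and 9.41 in mucosa. These groups were separate, with a fall of 0.79 (SE 0.15; adjusted p = 0.00192 in limma). Its other probe sets did not pass, one with a difference of -0.71 and one at 7.40 in both tissues, and with the mean of all 3 the call was lost (difference -0.50; adjusted p = 0.132). Robo1, the other receptor of Slit2, had a difference of 0.64, with one mucosal array at 5.81 and the others at 6.89 and 7.18 (95% interval -0.12 to 1.40). Robo3 was dim on every array.

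Of the netrins, only Ntn1 was bright enough to be tested. Ntn1, netrin-1, read 6.10, 4.77 and 6.16 in peri-implant tissue and 6.16, 7.02 and 6.56 in mucosa, so the groups overlapped near the dim value, and the difference of -0.90 had a 95% interval of -1.87 to 0.06 (adjusted p = 0.176 in limma). Ntn5 and Ntng1, the latter a lipid-anchored netrin-G that does not bind the classical netrin receptors, were dim on every array. Unc5b, a netrin receptor known from vessel sprouts, stood at 7.21, 6.31 and 6.51 against 7.60, 7.93 and 7.69 in mucosa. One peri-implant array lay close to the mucosal ones, but the groups did not overlap, and the level was 2.09-fold higher in mucosa (difference -1.07, SE 0.28; adjusted p = 0.0134 in limma). Without peri-implant array 2 the call was lost (difference -0.88; adjusted p = 0.0579), as it was with the mean of its 2 probe sets (-1.35; adjusted p = 0.0759). Unc5a and Unc5c were dim on every array. Unc50, a membrane protein that shares only the letters, had a difference of -0.07.

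The 17 members that were not tested had a mean over all arrays of at most 5.68. Just below this limit lay Plxnc1 at 5.49, Unc5c at 5.27 and Plxna4 at 5.22, and just above it Slit1 at 5.75, Ephb1 at 5.78 and Sema4f at 5.81. In 15 of the 17 both group means were dim, and 12 were dim on all 6 arrays. As deposited their differences ran from -2.58 for Ntn5 to 2.61 for Ntng1. With dim values raised to 5.90 the range was only -0.32 to 0.07, so these large differences lie among signals below the dim value. Of the 26 tested members that did not pass, 6 had groups that did not overlap, 4 had an unadjusted p under 0.05 and 6 were dim in at least 1 tissue. The same counts were not taken over all 7818 tested genes that did not pass. They are therefore not read as particular to the members.

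**Figure D3:**
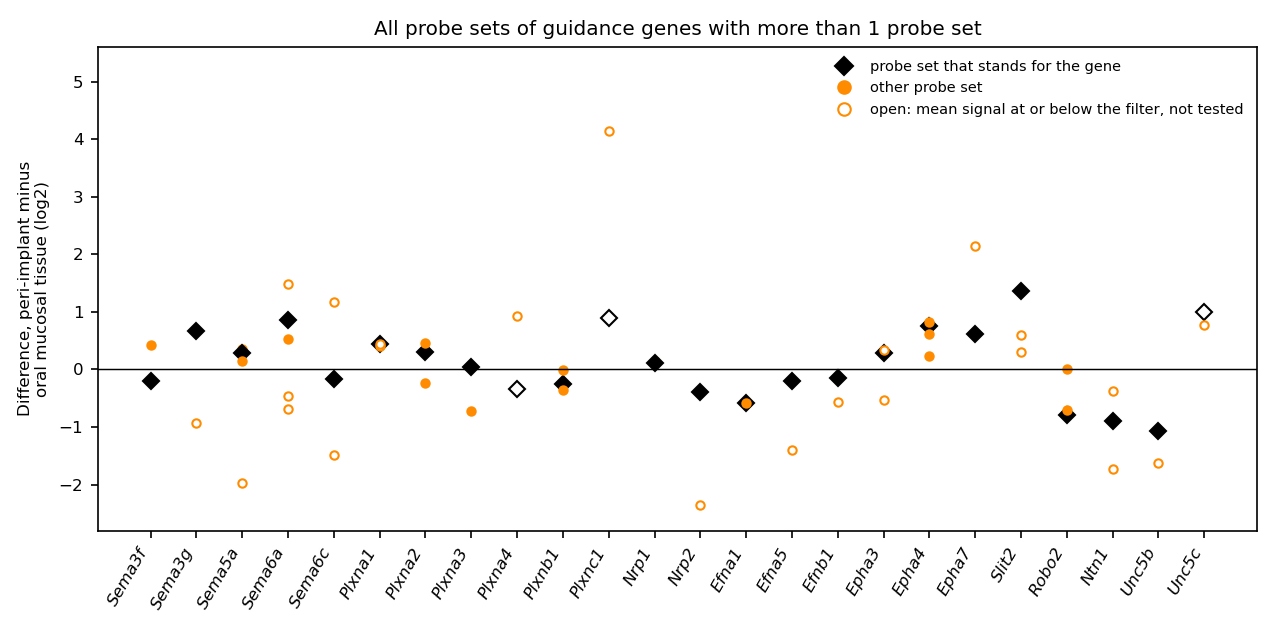
Difference in log2 signal, peri-implant minus oral mucosal tissue (vertical axis), for every probe set of the 24 members that have more than 1; black diamonds stand for the gene, orange circles are the other probe sets and open symbols were under the filter. The filled probe sets of Efna1 and Epha4 lie on one side of 0, and the open circle at 4.14 is the second probe set of Plxnc1.

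Other genes of these pathways were taken from lists chosen by role, with earlier results of these data known. Their called shares are set beside the 26.1% of all genes tested that were called, and were not tested. Among co-receptors and partner ligands, 6 of 21 tested genes were higher and 4 lower, with a median difference of 0.10. This share is above the 26.1%, in a list not chosen blind to the data. The chemokine receptor Cxcr4, on this list though not a receptor of the guidance ligands named above, rose by 1.88. The receptor phosphatase Ptprz1 rose by 0.59 and Vegfa, a growth factor that also binds neuropilins, by 0.62. The integrin subunit Itgb1 fell by 0.50. Dcc was dim on every array. Neogenin (Neo1), another netrin receptor, had a difference of 0.34 (adjusted p = 0.0692 in limma), and Draxin, a secreted protein that binds netrin receptors, fell by 1.58 to 6.01 ± 0.58 from 7.59 ± 0.37; both were singled out after their values were seen. Among intracellular effectors, 7 of 60 were higher and 8 lower, with a median difference of -0.07. These 15 of 60 are a share near that background. Ngef, ephexin-1, an exchange factor that binds EphA receptors, read 8.29, 8.41 and 8.70 in peri-implant tissue against 9.75, 9.67 and 9.81 in mucosa. It fell by 1.27 (SE 0.13; adjusted p = 1.01e-05 in limma), opposite in direction to Epha2 and Epha4. Vav3, another exchange factor that acts below Eph receptors, rose by 0.73 (SE 0.07; adjusted p = 5.19e-06 in limma). The actin-binding protein Ablim1 fell by 0.51, and Sdcbp, syntenin, a PDZ protein that binds ephrin-B tails, rose by 0.48.

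**Figure D4:**
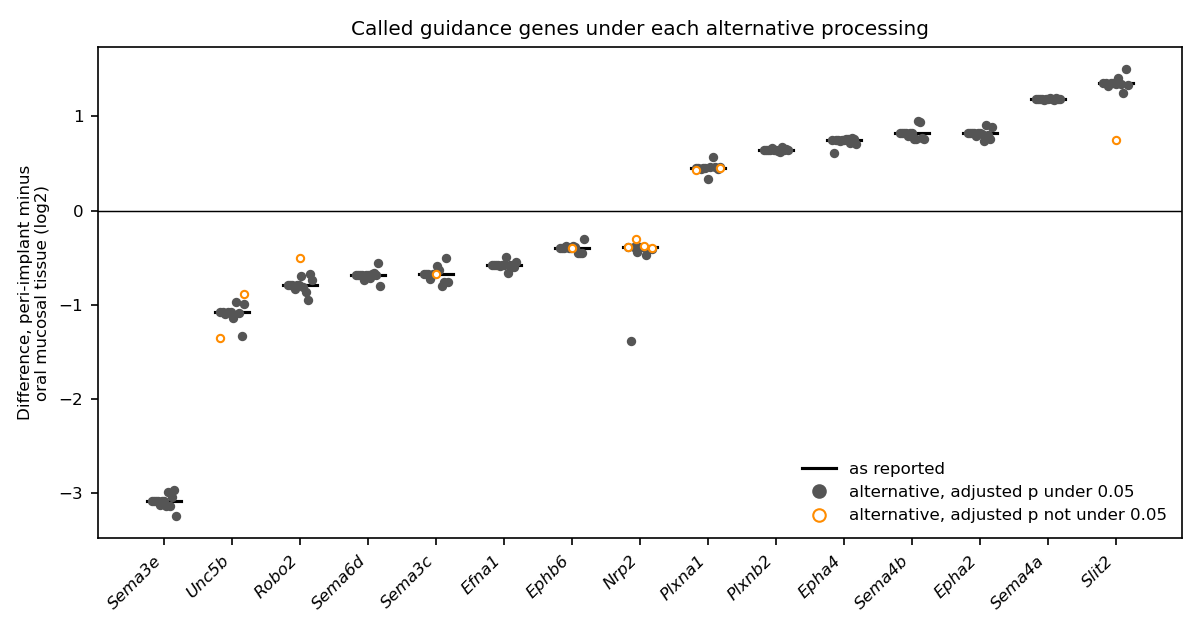
Difference in log2 signal, peri-implant minus oral mucosal tissue (vertical axis), of the 15 called members as reported (black lines) and under each alternative processing (points); open orange points did not pass an adjusted p of 0.05. Each gene stays on its side of 0, 8 genes have no open point, and Nrp2 has 4.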

How the data were processed

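Per the labels' protocols, total RNA of 3 samples of each tissue was labelled with biotin for Affymetrix arrays, 1 array each. The deposited values are log2 signals that the authors had scaled: turned back to linear values, each of the 6 arrays had a 2% trimmed mean of 500.2. Software and background method: not given in the sources used here. Values were used as deposited. The table holds 31099 probe sets, of which 57 are controls. In the array's annotation, 20826 probe sets had 1 symbol, 436 had several and 9780 none; all 58 members matched the GRCr8 gene table under the same symbol.

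The 18625 probe sets with a mean above the 40th percentile (5.68) were fitted in R 4.3.3 by limma's linear models (version 3.58.1; eBayes with its trend option, two-sided tests). Benjamini-Hochberg adjustment covered all of them, at a threshold of 0.05. The fit was tested on simulated data. Named were all called members, ligands or receptors of these, and up to 4 called genes of each pathway list with the smallest p. The members and lists were chosen with earlier results of these data known. Alternatives were other filters, quantile normalisation, a floor, the mean of probe sets, no variance trend, a replicate block and leaving out each array. A planned pseudocount for linear values was not needed. The number of arrays limits the precision.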

Additional observations from a re-analysis of the deposited data

How the results depend on the processing

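Over 13 alternatives no called member changed direction, and 8 of the 15, Sema3e, Sema4a, Sema4b, Sema6d, Plxnb2, Efna1, Epha2 and Epha4, passed in each. Without the variance trend 11 members passed, 6 higher and 5 lower; 1816 genes passed, 718 of them lower, against 2767 and 1161. The cause was not tested. With the mean of probe sets 4 calls were lost, Plxna1, Slit2, Robo2 and Unc5b, and Epha7 was gained. The filter at the 60th percentile left 24 members, of which 13 passed; Slit2 and Unc5b were no longer tested. Leaving out 1 array gave 13 to 15 called members, 7 higher in each case and 6 to 8 lower. It gave 2056 to 2714 genes, 3071 to 4044 probe sets and 17 to 25 pathway genes. With the replicate number as a block 15 members passed, the same 15 as without it. Deviations of same-numbered samples correlated at 0.0130, -0.0789 and 0.0272, so the data gave no sign of pairing; whether such samples came from the same rat is not known. Signals near the dim value limit what can be said of Slit2, Ntn1, Plxnc1 and the 17 members not tested. They also limit the size given for the falls of Sema3e and Unc5b, whose lowest peri-implant arrays read 6.53 and 6.31.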
